A study of Saccharomyces cerevisiae with 7 samples.

Results

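The genes described are 8 budding yeast genes for which transcription before the start codon has a known part in control. *IMD2*, *IMD3*, *IMD4*, *URA2*, *URA8* and *ADE12* encode enzymes of nucleotide synthesis, *HRP1* encodes an mRNA cleavage factor, and *SER3* encodes an enzyme of serine synthesis that lies behind the noncoding gene *SRG1*. They were chosen by name, with earlier results of these data known. They are 8 of the 4370 ORFs of at least 700 bp that had values in 3 regions. These regions were the 600 bp before the start codon (upstream), the first 500 bp of the ORF, and the rest of the ORF. Occupancy of RNA polymerase II (RNAPII) was measured by ChIP-seq with an anti-CTD antibody, which binds the repeated tail of its largest subunit, in asynchronous laboratory yeast of the W303 background in log phase, grown in rich medium (YEP) with 2% glucose at 30°C. The strains were *rtt109Δ*, which has no Rtt109, a histone H3 acetyltransferase, *rrp6Δ*, which has no Rrp6, an RNase of the nuclear exosome, and WT. Each genotype had 2 IP libraries, and 1 input library from W303 served them all, 7 samples in total. The deposited values are 1 track per genotype with its replicates combined, in ratios of IP to input. There was therefore no SD and no test: every difference below is between single tracks, with no replicate check, and the read depth is unknown.

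In many yeast genes of nucleotide synthesis, RNAPII can start at more than one place in the promoter. When the nucleotide is plentiful it starts far upstream, and the transcript is cut short by the Nrd1-Nab3-Sen1 termination complex and destroyed by the exosome with Rrp6. When the nucleotide is scarce RNAPII starts further downstream and makes the mRNA. *HRP1* is also held back by early termination of its transcripts, while at *SER3* in rich medium the long noncoding RNA *SRG1* is transcribed across the *SER3* promoter and keeps the gene low. ChIP-seq does not resolve strands, so RNAPII before a start codon can belong to the gene's own attenuated transcript, to another noncoding transcript or to a divergent neighbour, and these cannot be told apart here.

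A region was called higher or lower where its mean ratio differed from that of WT by over 1.3-fold, the limit of the study. Neighbouring windows (100 bp wide at steps of 50 bp) overlap and come from 1 track. The counts of higher windows given below are therefore not counts of independent measurements. The deletions were visible in the tracks. The *RTT109* ORF had a mean ratio of 0.0178 in *rtt109Δ*, against 1.36 in WT, and the *RRP6* ORF had 0.118 in *rrp6Δ*, against 1.01 in WT. The median of all 228888 windows was 1 in each track, so a genome-wide rise or fall would leave no trace. The windows of *rtt109Δ* spread less widely (SD over windows 0.661) than those of *rrp6Δ* (0.904) and WT (0.897), and for this reason the values of the genes are also set beside ORFs of similar WT level. The part of this narrower range in the differences below was not tested.

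The IP/input ratio of RNAPII was higher before the start codon than in the rest of the ORF in most of these genes. A high ratio there can come from little input as well as from much IP, and this was not tested. The ratio of the upstream mean to the mean of the rest of the ORF was over 1.3 in 7 of the 8 genes in *rtt109Δ*, in 6 of 8 in *rrp6Δ* and in 7 of 8 in WT. The same was found in 55.1% of all ORFs in *rtt109Δ*, 49.1% in *rrp6Δ* and 55.4% in WT. With upstream windows that overlap another ORF left out, the counts of genes were the same. The shares of all ORFs were then 66.8% in *rtt109Δ*, 59.0% in *rrp6Δ* and 65.3% in WT. In *rrp6Δ* the count was 4 of 8 with 300 bp upstream (56.0% of all ORFs) and 7 of 8 with the median over windows (40.7%). An upstream excess as such is therefore common. Its size at these genes over the full 600 bp had a median of 1.88 in *rtt109Δ*, 1.66 in *rrp6Δ* and 2.35 in WT, beside medians over all ORFs of 1.35 in *rtt109Δ*, 1.28 in *rrp6Δ* and 1.37 in WT. Upstream windows that overlap another ORF are included in these medians. *URA8* had the largest excess, with 2.83 in *rtt109Δ*, 3.77 in *rrp6Δ* and 3.62 in WT, and its WT value was above that of 98.7% of ORFs. *IMD4* (1.08 in *rtt109Δ*, 1.22 in *rrp6Δ*, 1.33 in WT) and *SER3* (1.52 in *rtt109Δ*, 1.17 in *rrp6Δ*, 1.15 in WT) had the smallest in WT.

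**Figure D1:**
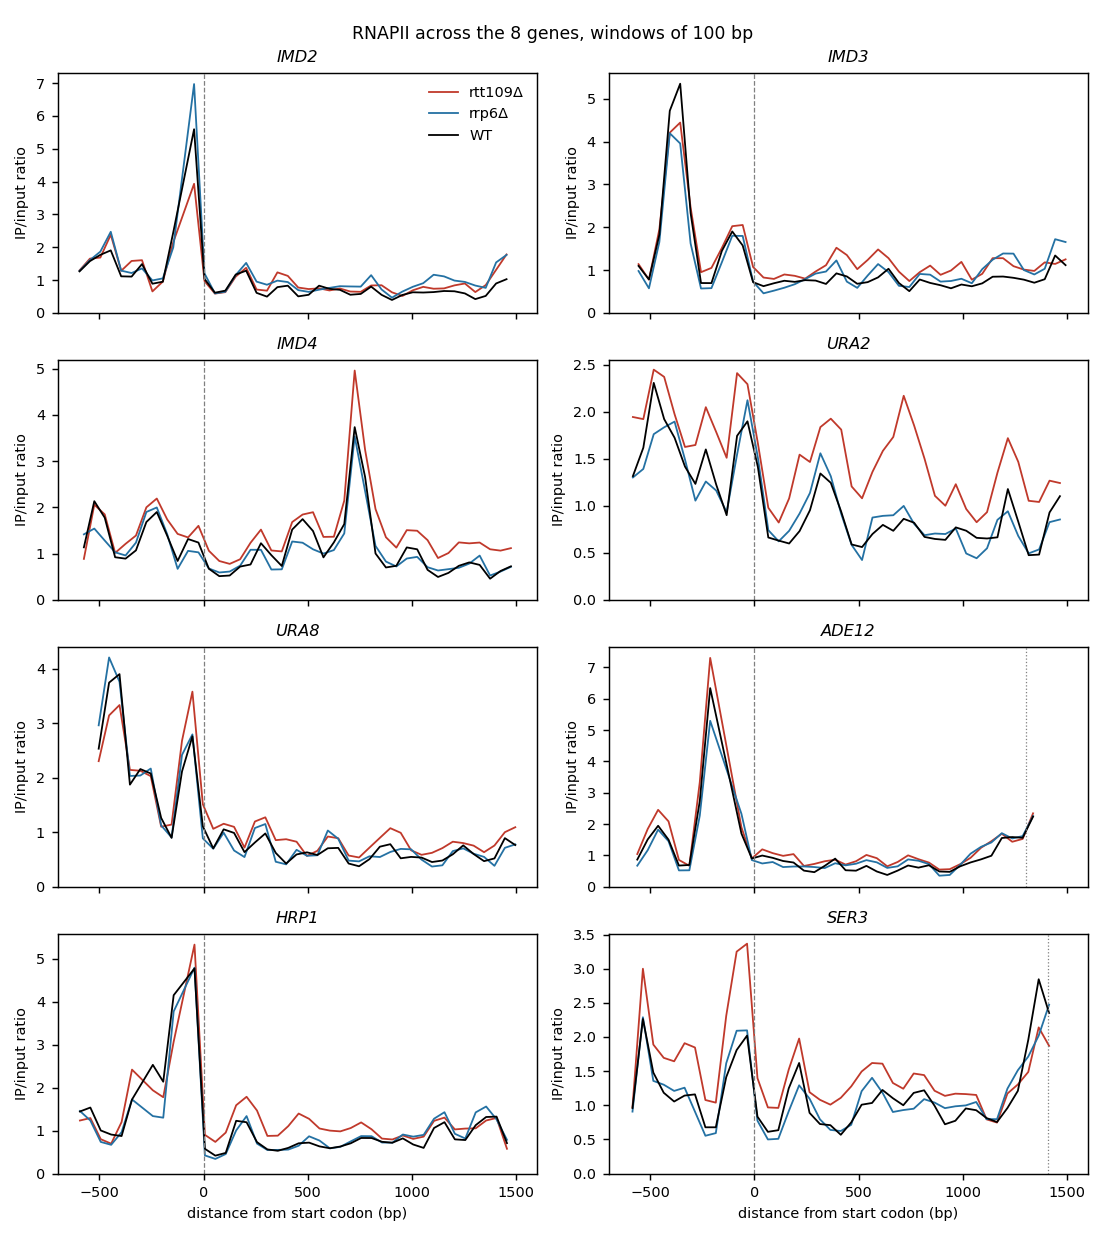
RNAPII occupancy (IP/input ratio, linear axis that starts at 0 and differs between panels) in windows of 100 bp against the distance of the window centre from the start codon in bp (dashed line), for the 8 genes, with *rtt109Δ* in red, *rrp6Δ* in blue and WT in black. A dotted line marks the end of an ORF within the plot, and lines join neighbouring windows, also across windows with no value. The sharp peaks of *IMD2*, *IMD3*, *ADE12* and *HRP1* stand before the start codon in all 3 tracks, while in *URA2* the red line lies above the others over the plotted part of the ORF.

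*IMD2*, *IMD3* and *IMD4* encode forms of IMP dehydrogenase, the enzyme at the first step of guanine nucleotide synthesis. They are close paralogs, and how reads shared between copies were placed is not given in the sources used here, so their values are uncertain in that respect. *IMD2* (YHR216W, chrVIII:554396-555967, plus strand) is the member of the family that responds to scarce GTP. Before its start codon the mean ratio was 1.74 in *rtt109Δ*, 2.01 in *rrp6Δ* and 1.83 in WT. The ORF held much less, with 0.919 in *rtt109Δ*, 0.954 in *rrp6Δ* and 0.800 in WT in its first 500 bp and 0.843 in *rtt109Δ*, 0.955 in *rrp6Δ* and 0.688 in WT in the rest. The highest upstream window was centred 46 bp before the start codon (chrVIII:554301-554400), next to a window with no value, at 3.93 in *rtt109Δ*, 6.97 in *rrp6Δ* and 5.59 in WT. The rest of the *IMD2* ORF was 1.39-fold higher in *rrp6Δ* than in WT (log2 ratio 0.47, 21 of 22 windows higher), a log2 ratio above that of 99.7% of all ORFs. When this region was split in the middle, the log2 ratio was 0.27 in its 5′ part and 0.62 in its 3′ part. Over the whole region it was under the 1.3-fold limit when a pseudocount of 0.5 was added (log2 ratio 0.29). In *rtt109Δ* the log2 ratios of *IMD2* to WT were -0.07 upstream, 0.20 in the first 500 bp and 0.29 in the rest, all under the limit.

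*IMD3* (YLR432W, chrXII:1002557-1004128, plus strand) had its upstream peak further from the start codon, centred 356 bp before it in *rtt109Δ* and WT and 406 bp before it in *rrp6Δ*. The highest windows there had 4.44 in *rtt109Δ*, 4.20 in *rrp6Δ* and 5.35 in WT, and the upstream means were 1.97 in *rtt109Δ*, 1.64 in *rrp6Δ* and 1.93 in WT. The first 500 bp of *IMD3* had 1.02 in *rtt109Δ*, 0.744 in *rrp6Δ* and 0.744 in WT, and the rest of the ORF had 1.10 in *rtt109Δ*, 1.06 in *rrp6Δ* and 0.813 in WT. RNAPII was thus higher in *rtt109Δ* than in WT in both parts of the ORF (log2 ratios 0.45 and 0.44, 10 of 10 and 20 of 21 windows higher) with an upstream log2 ratio of 0.03. In *rrp6Δ* the rest of the ORF was 1.298-fold the WT value, just under the limit, beside log2 ratios of -0.24 upstream and 0.00082 in the first 500 bp.

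*IMD4* (YML056C, chrXIII:162194-164176, minus strand) had its highest signal inside the gene. Its upstream mean was 1.56 in *rtt109Δ*, 1.29 in *rrp6Δ* and 1.36 in WT, with no sharp peak, and 1 of the 12 windows overlapped the divergent gene *SPC2*. The highest window of *IMD4* lay 726 bp after the start codon, with 4.96 in *rtt109Δ*, 3.53 in *rrp6Δ* and 3.74 in WT. The gene also hosts the small nucleolar RNA gene *snR54* in its intron, where the 2 windows averaged 1.36 in *rtt109Δ*, 1.04 in *rrp6Δ* and 1.08 in WT. The first 500 bp of *IMD4* had 1.19 in *rtt109Δ*, 0.859 in *rrp6Δ* and 0.937 in WT (log2 ratio of *rtt109Δ* to WT 0.35, under the limit). The rest had 1.45 in *rtt109Δ*, 1.06 in *rrp6Δ* and 1.02 in WT, which was 1.42-fold higher in *rtt109Δ* than in WT (log2 ratio 0.51, 29 of 30 windows higher). For *rrp6Δ* that log2 ratio was 0.06.

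*URA2* encodes the enzyme for the first steps of pyrimidine synthesis, carbamoyl phosphate synthetase with aspartate transcarbamylase. *URA2* (YJL130C, chrX:165723-172367, minus strand) differed over most of its length. Its upstream mean was 2.00 in *rtt109Δ*, 1.48 in *rrp6Δ* and 1.57 in WT. Its first 500 bp had 1.43 in *rtt109Δ*, 1.00 in *rrp6Δ* and 0.909 in WT, and the rest of the ORF had 1.47 in *rtt109Δ*, 1.06 in *rrp6Δ* and 0.938 in WT. In *rtt109Δ* RNAPII on *URA2* was 1.58-fold higher than in WT in the first 500 bp and 1.56-fold higher in the rest (log2 ratios 0.66 and 0.64, above those of 96.7% and 97.5% of ORFs), and 121 of the 123 windows of the rest were higher. The upstream log2 ratio was 0.34, with 12 of 12 windows higher, and its call depended on the processing: it was under the limit as deposited but over it with 300 bp in place of 600 bp (0.44), after scaling by the mean window (0.44) or the median ORF (0.39), after subtraction of the 10th percentile (0.43) and after the rank match to WT (0.58). In *rrp6Δ* the log2 ratios of *URA2* were -0.09 upstream, 0.14 in the first 500 bp and 0.17 in the rest.

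*URA8* (YJR103W, chrX:620754-622490, plus strand) encodes CTP synthase, which makes the last nucleotide of the pyrimidine pathway. RNAPII before the start codon had means of 2.28 in *rtt109Δ*, 2.30 in *rrp6Δ* and 2.22 in WT, the highest WT mean of the 8 genes. The ORF in contrast was low, with 0.961 in *rtt109Δ*, 0.723 in *rrp6Δ* and 0.743 in WT in the first 500 bp, and 0.806 in *rtt109Δ*, 0.610 in *rrp6Δ* and 0.613 in WT in the rest. The rest of *URA8* was 1.32-fold higher in *rtt109Δ* than in WT, with 24 of 24 windows higher, and the first 500 bp were at 1.294-fold, just under the limit. Upstream there were 2 places of high signal, and the highest window of *rtt109Δ* (3.58) was centred 54 bp before the start codon whereas those of *rrp6Δ* (4.21) and WT (3.90) were centred 454 bp and 404 bp before it. Its paralog *URA7* encodes the other CTP synthase. Reads shared by this pair carry the same doubt. *URA7* had upstream means of 0.957 in *rtt109Δ*, 0.796 in *rrp6Δ* and 0.894 in WT, much lower than those of *URA8*. *URA7* had more RNAPII in the first 500 bp in *rtt109Δ* (0.827, against 0.558 in WT, log2 ratio 0.57), and the log2 ratio of its rest was 0.23.

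*ADE12* (YNL220W, chrXIV:234413-235714, plus strand) encodes adenylosuccinate synthase, which leads from IMP to AMP. The upstream means were 2.24 in *rtt109Δ*, 1.69 in *rrp6Δ* and 1.88 in WT, and they held the highest upstream window of the 8 genes in *rtt109Δ* and in WT. The window centred 212 bp before the start codon (chrXIV:234151-234250) had 7.30 in *rtt109Δ*, 5.30 in *rrp6Δ* and 6.34 in WT. It lay next to a window with no value, and the upstream means of *ADE12* rest on 10 windows. The *ADE12* ORF had 0.886 in *rtt109Δ*, 0.682 in *rrp6Δ* and 0.707 in WT in its first 500 bp, and 1.01 in *rtt109Δ*, 0.956 in *rrp6Δ* and 0.809 in WT in the rest. All of its log2 ratios were under the limit, at 0.25, 0.33 and 0.31 for *rtt109Δ* and -0.16, -0.05 and 0.24 for *rrp6Δ*.

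*HRP1* (YOL123W, chrXV:87844-89448, plus strand) encodes an RNA-binding subunit of cleavage factor I, which acts in 3′ end formation of mRNA. Its upstream means, over 10 windows, were 1.98 in *rtt109Δ*, 1.80 in *rrp6Δ* and 2.11 in WT. The highest window, 44 bp before the start codon, had 5.33 in *rtt109Δ*, 4.80 in *rrp6Δ* and 4.78 in WT. This window also lay next to one with no value. The first 500 bp had 1.17 in *rtt109Δ*, 0.656 in *rrp6Δ* and 0.702 in WT, and the rest had 1.00 in *rtt109Δ*, 0.974 in *rrp6Δ* and 0.865 in WT. *HRP1* had the largest difference in the first 500 bp of the 8 genes, 1.67-fold higher in *rtt109Δ* than in WT (log2 ratio 0.74, above that of 97.9% of ORFs, 10 of 10 windows higher). It did not reach the end of the gene: the log2 ratio was 0.47 in the 5′ part of the rest, split in the middle, and 0.00075 in its 3′ part. In *rrp6Δ* the log2 ratios were -0.23 upstream, -0.10 in the first 500 bp and 0.17 in the rest.

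*SER3* encodes phosphoglycerate dehydrogenase, at the first step of serine synthesis. At *SER3* (YER081W, chrV:322686-324095, plus strand) the region before the start codon was itself higher in *rtt109Δ*, the only one of the 8 genes for which the mean over 600 bp passed the limit with the tracks as deposited. The upstream mean was 2.00 in *rtt109Δ*, 1.35 in *rrp6Δ* and 1.32 in WT, which was 1.52-fold higher in *rtt109Δ* than in WT (log2 ratio 0.60, above that of 98.9% of ORFs, 12 of 12 windows higher). The annotated *SRG1* gene (chrV:322212-322762) starts 474 bp before the *SER3* start codon and overlaps *SER3* by 77 bp. *SRG1* had 1.86 in *rtt109Δ*, 1.17 in *rrp6Δ* and 1.14 in WT, 1.63-fold higher in *rtt109Δ* than in WT in 11 of 11 windows, and that of *rrp6Δ* had a log2 ratio to WT of 0.04. The 365 bp between the start of *SRG1* and the gene *AIM9* had means of 2.57 in *rtt109Δ*, 2.72 in *rrp6Δ* and 2.56 in WT. These close means hide windows that went both ways: 6 of 8 were higher in *rtt109Δ* than in WT, such as the one centred at -685.5 bp from the *SER3* start codon (1.83 in *rtt109Δ*, against 1.39 in WT), while the one at -835.5 bp, by *AIM9*, had 2.96 in *rtt109Δ*, against 4.42 in WT.

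The higher signal went on into *SER3*. The first 500 bp had 1.25 in *rtt109Δ*, 0.785 in *rrp6Δ* and 0.858 in WT, 1.45-fold higher in *rtt109Δ* than in WT with 10 of 10 windows higher. The rest of *SER3* had 1.32 in *rtt109Δ*, 1.15 in *rrp6Δ* and 1.15 in WT (log2 ratio of *rtt109Δ* to WT 0.20). Its 5′ part had a log2 ratio of 0.40 and its 3′ part one of -0.01. In *rrp6Δ* no region of *SER3* passed the limit, with log2 ratios of 0.03 upstream, -0.13 in the first 500 bp and 0.01 in the rest.

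**Figure D2:**
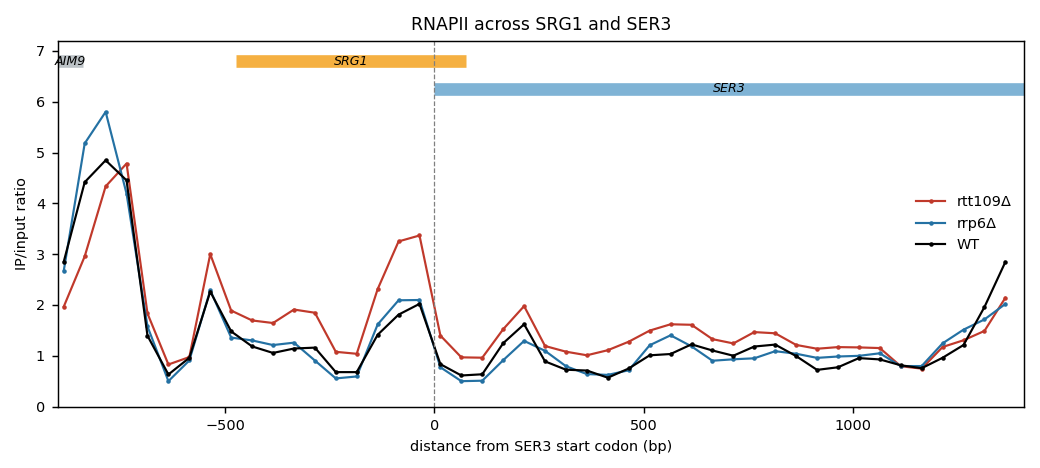
RNAPII occupancy (IP/input ratio) in windows of 100 bp across *SRG1* and *SER3* against the distance from the *SER3* start codon in bp, in *rtt109Δ* (red), *rrp6Δ* (blue) and WT (black), 1 point per window. Bars mark the annotated *AIM9* (grey, its end), *SRG1* (orange) and *SER3* (light blue). The red line runs above the other lines over the whole of *SRG1* and the first 500 bp of *SER3* and meets them towards the end of *SER3*.

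As a group, the genes had more RNAPII on their ORFs in *rtt109Δ* than in WT. In the first 500 bp 4 of 8 were higher by over 1.3-fold (*IMD3*, *URA2*, *HRP1* and *SER3*) where 13.9% of all ORFs were, and none was lower where 6.2% of all ORFs were. In the rest of the ORF 4 of 8 were higher (*IMD3*, *IMD4*, *URA2* and *URA8*) where 8.63% of ORFs were, and none was lower where 13.1% were. Before the start codon 1 of 8 was higher (*SER3*) where 5.22% of ORFs were, and none was lower where 16.4% were. Counted by any amount, a count added after the values were seen, 8 of 8 genes had more RNAPII in *rtt109Δ* in both parts of the ORF, and so did 32.6% of all ORFs.

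Over the 8 genes the median log2 ratio for *rtt109Δ* was 0.12 upstream, 0.41 in the first 500 bp and 0.35 in the rest, beside -0.07, 0.05 and -0.08 over all ORFs. Among ORFs within the range of WT levels of the 8 genes (1876, 1610 and 2633 ORFs), the medians were -0.18, 0.08 and -0.01. Of these ORFs 1.23%, 7.52% and 9.23% were higher by over 1.3-fold, and 21.7%, 0.93% and 5.13% were lower. The 2 parts of *URA2*, the first 500 bp of *HRP1* and the upstream region of *SER3* stayed over 1.3-fold in *rtt109Δ* under each scaling, summary, upstream length, pseudocount and background tried, and also passed a limit of 1.5-fold. The other calls of the 8 genes in *rtt109Δ* did not pass 1.5-fold, and with the pseudocount they were under 1.3-fold, at log2 ratios of 0.28 and 0.29 in the parts of *IMD3*, 0.36 in the rest of *IMD4*, 0.23 in the rest of *URA8* and 0.36 in the first 500 bp of *SER3*. The first 500 bp of *IMD3* was also under the limit with the median over windows (0.34), and the rest of *URA8* after the mutant windows were given the WT distribution by rank (0.33).

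In *rrp6Δ* fewer of the 8 genes passed the limit than in *rtt109Δ*, and ORFs in general spread less around WT (in the rest of the ORF, 5th to 95th percentile of the log2 ratio -0.24 to 0.25 in *rrp6Δ* and -0.51 to 0.50 in *rtt109Δ*). Upstream 0 of 8 were higher and 0 lower (0.16% and 3.48% of all ORFs), and in the first 500 bp 0 of 8 were higher and 0 lower (1.26% and 1.46% of all ORFs). In the rest of the ORF 1 of 8 was higher, *IMD2*, where 0.824% of ORFs were, and none was lower where 1.24% were. The medians over the 8 genes were -0.08 upstream, -0.05 in the first 500 bp and 0.17 in the rest, beside -0.07, -0.0033 and 0.03 over all ORFs. Counted in both parts of the ORF, 3 of 8 genes (*IMD2*, *IMD3* and *URA2*) had more RNAPII by any amount than in WT, as did 33.6% of all ORFs. The 2 mutants were compared with the same WT track and share its input.

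**Figure D3:**
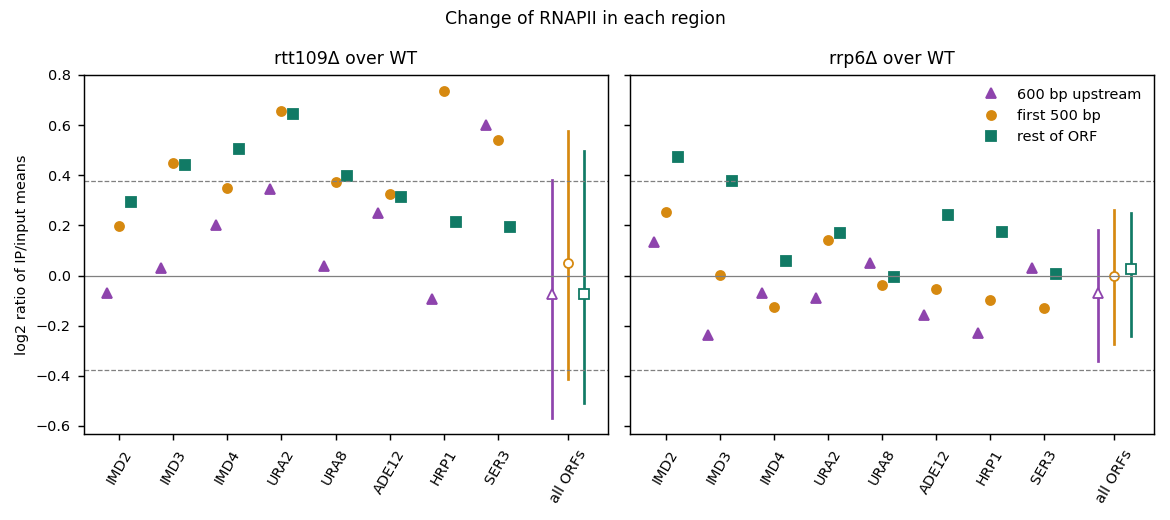
Log2 ratio of the mean IP/input ratio in *rtt109Δ* over WT (left) and in *rrp6Δ* over WT (right) for the 600 bp upstream (triangles), the first 500 bp (circles) and the rest of the ORF (squares) of each gene. Open symbols and vertical lines give the median and the 5th to 95th percentile range of all 4370 ORFs, and dashed lines mark 1.3-fold. On the left all circles and squares of the 8 genes lie above 0, and on the right only the square of *IMD2* lies over the upper dashed line.

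Relative to the rest of the ORF, the upstream signal was smaller in both mutants at most of these genes. In *rtt109Δ* the log2 of the upstream-to-rest ratio was below that of WT by any amount in 7 of 8 genes, where it was in 51.7% of all ORFs. The shifts of 6 of these 7 lay between -0.41 (*IMD3*) and -0.30 (*URA2*), and *ADE12* had -0.07. For *IMD3* 12.8% of all ORFs had a lower shift, and for *URA2* 19.7% did, so shifts of this size are common. After the rank match of the mutants to WT the count was 6 of 8, beside 37.5% of all ORFs. The 8 genes had a large upstream excess in WT, and the part of the narrower spread of *rtt109Δ* in these shifts was not tested. *SER3* went the other way, with a shift of 0.40. In *rrp6Δ* it was below WT in 6 of 8 genes where it was in 68.8% of ORFs, which is close to the background. *IMD3* had the largest shift in *rrp6Δ*, -0.61, and 1.10% of ORFs had a lower one, while *URA8* (0.06) and *SER3* (0.02) had shifts above 0. These counts were also added after the values were seen.

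**Figure D4:**
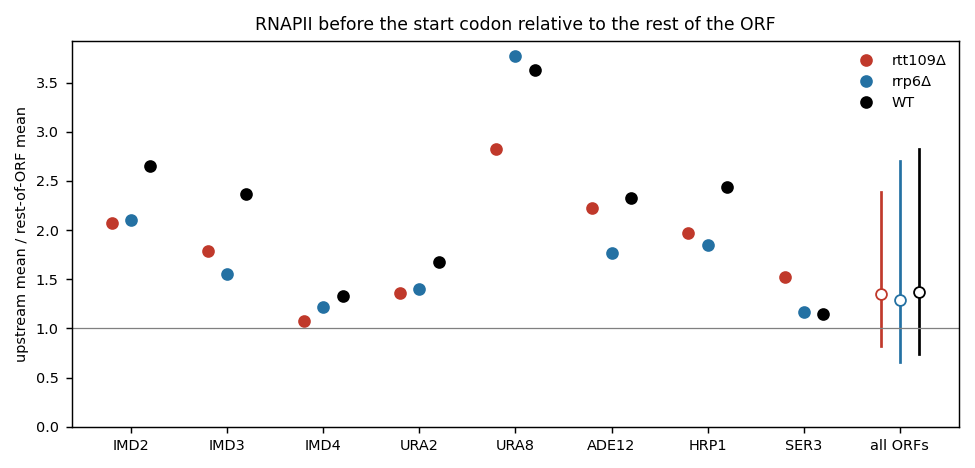
Mean IP/input ratio in the 600 bp before the start codon divided by that of the rest of the ORF (linear axis from 0) in *rtt109Δ* (red), *rrp6Δ* (blue) and WT (black) for each gene. Open circles and vertical lines give the median and the 5th to 95th percentile range of all ORFs, and the grey line marks a ratio of 1. WT has the highest point in 6 of the 8 genes, *rrp6Δ* in *URA8* and *rtt109Δ* in *SER3*.

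The difference in *rtt109Δ* was not the same along the ORF. Nor was the difference between the medians over all ORFs: the median window at 525 bp after the start codon was 0.821 in *rtt109Δ*, against 0.770 in WT. At 1125 bp it was 0.923 in *rtt109Δ*, against 0.939 in WT. These medians of levels are over different ORFs (4366 windows at 525 bp and 3094 at 1125 bp), because shorter ORFs end before the second position. They are not ratios within a gene. A smaller difference further into the ORF can therefore not be called particular to these genes, and no value over all ORFs is given here for the last 200 bp. For *URA2* the log2 ratio was 0.76 in the 5′ part of the rest and 0.53 in the 3′ part, and for *IMD4* it was 0.52 and 0.49. In the last 200 bp before the stop codon the value was much smaller in both, 0.05 for *URA2* and 0.12 for *IMD4*. *URA8* kept its difference to the end, with 0.41 in the 5′ part, 0.38 in the 3′ part and 0.40 in the last 200 bp. In *ADE12* the 5′ part had 0.55 and the 3′ part 0.17. Of the 8 genes *IMD2* alone had its larger value in the 3′ part (0.39, and 0.17 in the 5′ part). In those last 200 bp the values of *HRP1* (-0.33) and *SER3* (-0.19) were below 0. The split of the rest was added after the values were seen.

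The neighbouring genes on the upstream side went both ways. In *rtt109Δ* the log2 ratio to WT was -0.76 for *SPC2*, divergent from *IMD4*, -0.61 for *VPS25*, divergent from *URA8*, and -0.29 for *ATG23*, divergent from *IMD3*. *POP1*, divergent from *ADE12*, had 0.29, and *TRM11*, divergent from *HRP1*, had -0.17. Of the genes in tandem, *PHO12* before *IMD2* had 0.38, just over the limit (its sequence is close to that of other acid phosphatase genes), *TRK1* before *URA2* had 0.03 and *AIM9* before *SER3* had -0.26. In *rrp6Δ* all of these neighbours were under the limit. *ATG23* had the highest log2 ratio there (0.29), followed by *PHO12* (0.23), and *SPC2* the lowest (-0.29), with the others between 0.01 and 0.11.

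Other genes of the same pathways were read from lists chosen with earlier results known. Of 11 other genes of purine synthesis 10 had values, and in *rtt109Δ* 2 of these were higher in the first 500 bp and 4 in the rest of the ORF, with none lower. The shares of all ORFs were 13.9% higher and 6.2% lower in the first 500 bp, and 8.63% higher and 13.1% lower in the rest, so 2 of 10 is near the share of all ORFs. *ADE3*, which supplies one-carbon units, had the largest log2 ratio in the rest, 0.83 (0.990 in *rtt109Δ*, against 0.557 in WT), and *ADE4*, the first enzyme of the pathway, had the lowest, -0.18. Of 9 other genes of pyrimidine synthesis 6 had values, and 2 were higher in the first 500 bp (13.9% of all ORFs) and 2 in the rest (8.63% of all ORFs), with none lower (6.2% and 13.1% of all ORFs). *CPA1*, a subunit of the arginine-specific carbamoyl phosphate synthetase, had the highest log2 ratio there, 0.73, and *URA1*, dihydroorotate dehydrogenase, the lowest, -0.34. *SER1* and *SER2*, the later enzymes of serine synthesis, had log2 ratios of 0.15 and -0.08 in the rest of the ORF in *rtt109Δ*. In *rrp6Δ* none of these 18 genes passed the limit in any region. Of all ORFs 0.16% to 3.48% did, by region and direction, so this is near the background.

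The ORFs most like *IMD2* over 9 log2 levels (3 regions in 3 tracks) were *DOG1*, YJL107C and *PCK1*, at Euclidean distances of 0.36, 0.40 and 0.40. Those most like *SER3* were *SWD1*, *RAX2* and *MTW1*, at 0.37, 0.45 and 0.47. Of these, *SWD1* was over the limit in *rtt109Δ* in all 3 regions, with log2 ratios of 0.52 upstream, 0.66 in the first 500 bp and 0.43 in the rest. Like *SER3*, *MTW1* was over it upstream (0.40) and in the first 500 bp (0.48) but not in the rest (0.30), while *RAX2* was under it throughout. In *rrp6Δ* the rest of *DOG1* was just over the limit (0.379), as that of *IMD2* was, while YJL107C (0.20) and *PCK1* (0.22) were under it. All were picked by levels in these same tracks, so alike changes are partly built in.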

How the data were processed

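RNAPII ChIP-seq was done on formaldehyde-crosslinked chromatin cut with micrococcal nuclease. Per the labels the authors made 2 IP libraries for each of *rtt109Δ*, *rrp6Δ* and WT and 1 input library. They deposited 1 track per genotype, an IP/input ratio for windows 100 bp wide at steps of 50 bp (228888 windows on 15 chromosomes, the median scaled to 1 in each). Chromosome IX was not analysed here. The submitters' processing notes name sacCer3, FastQC, Bowtie2, SAMtools, deepTools and bedtools; which step each made, the versions and how replicates were combined are not given in the sources used here. Nuclease cutting depends on chromatin structure, and IP and input cannot be told apart in a ratio, so a high value before a start codon can come from little input as well as from much IP. The authors' table of values per ORF was not used.

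Gene positions came from the RefSeq R64 annotation, which is the same build as sacCer3. Each region took the mean over those windows whose centre it holds, with no pseudocount and no filter on low values, and log2 ratios to WT were taken from these means. Some windows have no value in the tracks. A gene was called at more than 1.3-fold, the limit of the study. With 1 track per genotype no test was possible, and no p-value is given. The count of called genes was read beside the share of 4370 ORFs called.

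The genes and lists were chosen with earlier results of these data known. The text names the 8 genes, their upstream neighbours and paralogs, *RTT109* and *RRP6*, the extremes of 3 lists (purine, pyrimidine and serine synthesis), and for *IMD2* and *SER3* the 3 ORFs nearest in Euclidean distance over 9 log2 levels. The ratios given for these nearest ORFs were chosen after their values were seen. Of the lists, ADE8, URA5, URA6 and URA10, which are under 700 bp, and SER33 on chromosome IX have no value here, and neither has the IMD paralog IMD1.

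Alternatives were other scalings, the median over windows, 300 bp upstream, upstream windows outside other ORFs, a limit of 1.5-fold, a pseudocount of 0.5, subtraction of the 10th percentile of windows, and ORFs at or above the median level as background. Added after the data were seen were a rank match of both mutants to the WT windows, ORFs within the range of WT levels of the 8 genes, parts of the rest of the ORF and the 2 counts by any amount. A median over the 8 genes counted as moved when it left the range from the second lowest to the second highest gene. Scripts were tested on simulated data. Computations ran in Python 3.11.15 with pandas 2.3.3, numpy 2.4.6 and scipy 1.17.1, and plots were drawn with matplotlib 3.10.9.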

Additional observations from a re-analysis of the deposited data

How the results depend on the processing

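No paired analysis was possible because the replicates of a genotype come as 1 combined track, which also meant that none could be left out. No called value changed sign. Many settings cannot change a given value (another upstream length leaves the ORF as it was, and a scaling leaves ratios within a track), so the number of values that stayed the same is not given. In *rtt109Δ* the number of genes higher upstream was 2 after scaling by the mean window, after scaling by the median ORF, with 300 bp and after subtraction of the 10th percentile, and 3 after the rank match, against 1, with *URA2* gained in each and *ADE12* also after the rank match. The rank match also put the upstream median at 0.34 (0.04 over all ORFs, where it was -0.07). In the first 500 bp the number higher was 7 after scaling by the mean and after subtraction, and 2 at 1.5-fold and with the pseudocount, against 4. The median there was 0.26 with the pseudocount and 0.92 after subtraction. In the rest of the ORF the number higher was 1 at 1.5-fold and with the pseudocount, 3 after the rank match, and 6 after scaling by the mean, with the median over windows and after subtraction, against 4, and the median was 0.76 after subtraction. In *rrp6Δ* the number higher in the rest was 2 after scaling by the mean, 0 at 1.5-fold and with the pseudocount, and 6 after subtraction, against 1, with a median of 0.56 after subtraction. Subtraction also gave 2 genes higher in the first 500 bp in *rrp6Δ*, against 0. The genes with more RNAPII in both parts of the ORF in *rrp6Δ* numbered 5 after subtraction and 5 after the rank match, against 3, while in *rtt109Δ* they numbered 8 under each alternative that could change them. Subtraction left low regions near 0, so ratios there became large. A stricter limit gives fewer calls and a pseudocount smaller ratios by construction, and for the other settings the cause was not tested. The lack of replicate values and the unknown depth limit every difference given here.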

Other observations

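The annotation holds 19 noncoding RNA genes with windows in the tracks, *SRG1* among them. In *rtt109Δ* 2 of the 19 were higher than in WT by over 1.3-fold, *SRG1* (log2 ratio 0.70) and *HRA1* (0.54, with 1.25 in *rtt109Δ*, against 0.865 in WT, 11 of 11 windows higher), and 7 were lower. The lowest was SUT035, with 1.40 in *rtt109Δ*, against 3.17 in WT, in 3 windows. In *rrp6Δ* 3 of the 19 were lower and 2 were higher than in WT. Both higher ones were the copies RUF5-1 (1.12 in *rrp6Δ*, against 0.717 in WT) and RUF5-2 (1.19 in *rrp6Δ*, against 0.758 in WT), between which reads may be shared. In *rtt109Δ* both copies were among the 7 lower genes (log2 ratios -0.39 and -0.50). Of all ORFs, in the rest of the ORF, 8.63% were higher and 13.1% lower in *rtt109Δ*, and 0.824% higher and 1.24% lower in *rrp6Δ*. Those regions differ in length from the noncoding genes. The SUT053 and SUT468 genes overlap, so the 19 are not independent. The genes named here were chosen after their values were seen.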
